A study of Homo sapiens with 8 samples.

Results

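The syntrophins and the proteins around dystrophin were followed after knockdown of *EPB41L4A*, which codes for a band 4.1 family protein, in BCPAP cells, a line derived from a papillary thyroid carcinoma. A total of 9 genes was listed: the syntrophins *SNTG1*, *SNTB1* and *SNTB2*, dystrophin (*DMD*) and utrophin (*UTRN*), the dystrobrevins *DTNA* and *DTNB*, dystroglycan (*DAG1*) and the sarcoglycan *SGCE*. Of the 33616 genes with a probe set that carries a single gene symbol, 8 are of this list. *DAG1* has no such probe set and was not analysed here. All 8 passed the filter on low values, as did 22465 genes in all. The family was chosen by the measured fall of *SNTG1* on these arrays, so the values of *SNTG1* are a description without a test. The mean over all arrays selected the probe set of each gene, so levels were not tested. Levels of different probe sets were set against each other only within paralog pairs, where their difference on an array was compared between the groups. Profiles were compared with that of *SNTG1* only after each gene was centred on its own mean.

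The cells received an siRNA pool against *EPB41L4A* (si*EPB41L4A*) or a non-targeting siRNA pool (si*NS*) and were harvested 72 h later. The labels give the same siRNA concentration for all samples. Each group has 4 arrays of the Clariom D Human type, and the labels place the replicates at separate experiments. The titles and source names of the control samples give si*NS*, which was used, although 1 of their protocol fields mentions *LRRC34* siRNA instead. Both groups come from a single line and each rests on a single siRNA pool, so off-target action of the pool and the lowering of *EPB41L4A* cannot be told apart. The control and treated samples also carry separate blocks of sample numbers. Any batch that coincides with treatment cannot be told apart from the siRNA either, and was not tested.

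The dystrophin-associated complex links the actin cytoskeleton through the plasma membrane to laminin and other matrix proteins. Dystroglycan spans the membrane and binds the matrix through its sugar chains, dystrophin or its relative utrophin binds dystroglycan from inside, and the sarcoglycans and sarcospan stabilise the complex in the membrane. Dystrobrevins bind dystrophin and utrophin and, like them, carry syntrophins, which are adaptors whose PDZ domains hold channels, kinases and transporters near the membrane. The complex is best known for its loss in muscular dystrophies, while utrophin, the beta-syntrophins and beta-dystrobrevin are also known from epithelial and other non-muscle cells.

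Expression is given as the deposited log2 values, which the authors made with the robust multiarray average (RMA) for each probe set on each array. The negative control probe sets of the arrays averaged 4.05 to 4.29, and the 95th percentile of these controls lay between 5.97 and 6.43. Array medians were 3.72 to 3.84. The highest value of an array was 19.79 to 19.92, more than a 16-bit scanner can give, so folds are those of the deposited scale, which need not be folds of RNA. *EPB41L4A* had log2 values of 5.55, 5.94, 6.72 and 7.09 in si*EPB41L4A* arrays, against 9.65, 9.22, 9.81 and 9.44 in si*NS* arrays, so the knockdown is seen in all 4 treated cultures.

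Of the thyroid markers, *PAX8*, *NKX2-1* and *FOXE1* exceeded the 95th percentile of the controls on all 8 arrays, and *TG*, *TSHR*, *SLC5A5* and *DIO1* did so on none. Among 8 skeletal muscle markers, *ACTA1* alone exceeded it on all arrays and the other 7 did so on none, with a mean over the 8 of 4.47 to 4.68 in si*EPB41L4A* arrays and 4.48 to 4.84 in si*NS* arrays. None of 4 glial and none of 6 leukocyte and endothelial markers exceeded it on any array. Of the 6 epithelial markers, 5 were tested and limma called 2 of them, where it called 5.51% of all genes. *EPCAM*, a cell adhesion molecule, fell by 2.43 (adjusted p = 0.00683 from limma) and exceeded the 95th percentile of the controls on 5 of 8 arrays. *KRT7*, a keratin of simple epithelia, fell by 1.42 on the log2 scale (adjusted p = 0.00645 from limma). *KRT8* and *KRT18* differed by -1.02 and -0.55 and *KRT19* by 0.15, with adjusted p of 0.109, 0.566 and 0.824 from limma. Neither *EPCAM* nor *KRT7* passed the unmoderated test (adjusted p = 0.127 for *EPCAM* and 0.0525 for *KRT7* over all probe sets). *KRT7* was also not called by limma without both arrays numbered 2 (adjusted p = 0.0534). The mean of the 6 epithelial markers was 9.22 to 9.80 in si*EPB41L4A* arrays and 10.01 to 10.50 in si*NS* arrays, and *CDH1* stayed near the level of the controls in both groups. The part of these shifts in the results on the complex was not tested. In such bulk samples of a single line, fewer cells that express a gene and less RNA per cell cannot be told apart.

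*SNTG1*, by whose fall the family was chosen, stood far apart from the other members. It encodes gamma-1-syntrophin, a syntrophin best known from neurons. Its log2 values were 7.09, 6.54, 7.01 and 5.90 in si*EPB41L4A* arrays, against 10.11, 10.12, 11.18 and 11.16 in si*NS* arrays. The groups did not overlap, as in the 7.85% of all genes tested that were lower without overlap, and the highest array with si*EPB41L4A* lay well under the lowest with si*NS*. The means were 6.63 ± 0.55 in si*EPB41L4A* cells and 10.64 ± 0.61 in si*NS* cells (SD, n = 4 each), a log2 difference of -4.01, or 16.1-fold lower in the deposited values. Of all 22465 genes tested, 6 had a larger fall. The difference lay between -4.19 and -3.77 when any single array was left out. *SNTG1* exceeded the 95th percentile of the negative controls on 7 of the 8 arrays, the exception being si*EPB41L4A* replicate 4.

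**Figure D1:**
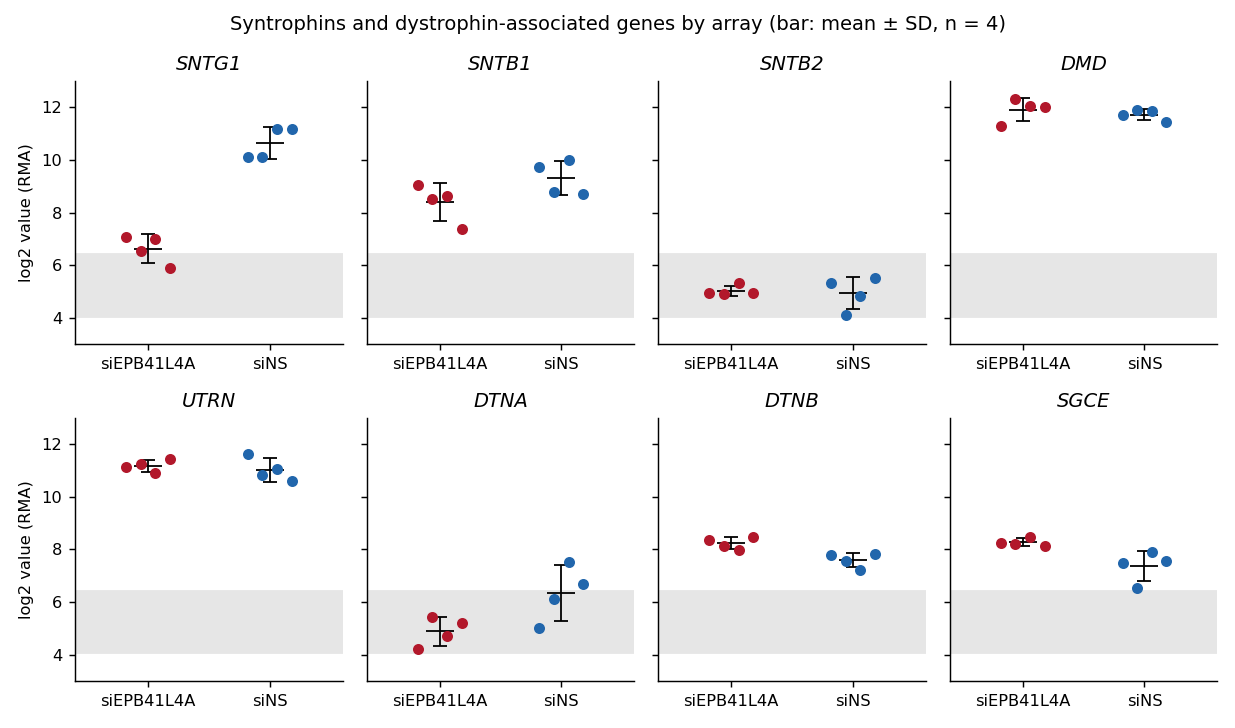
Log2 RMA values (y axis) of the 8 measured members on the 4 arrays with siEPB41L4A and the 4 with siNS; points are arrays, bars the mean ± SD, and the grey band runs from the lowest mean to the highest 95th percentile of the negative control probe sets. SNTG1 is the only panel with a gap of several log2 units between the groups, SNTB2 lies inside the band throughout, and the DTNB and SGCE points with siEPB41L4A sit just above those with siNS.

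No other member passed the test. Of the 7 besides *SNTG1*, 0 were called at an adjusted p under 0.05 by limma, where 5.51% of all 22465 genes were called (2.55% higher and 2.96% lower). Without adjustment, 4 of the 7 had a p under 0.05, *DTNB* and *SGCE* with higher and *SNTB1* and *DTNA* with lower values, where 22.2% of all genes did. A test of each probe set without moderation of its variance also called 0 of the 7, where it called 1.02% of all genes. The median log2 difference of the 7 was 0.17, with 5 above and 2 below 0, and that of all genes was -0.06.

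The beta-syntrophins are the syntrophins of most non-muscle tissues. *SNTB1*, beta-1-syntrophin, had log2 values of 9.04, 8.53, 8.63 and 7.36 in si*EPB41L4A* arrays, against 9.74, 8.78, 9.99 and 8.72 in si*NS* arrays. The groups overlapped, with replicate 4 of si*EPB41L4A* the lowest of all. The means were 8.39 ± 0.72 in si*EPB41L4A* cells and 9.31 ± 0.65 in si*NS* cells (SD, n = 4 each), a log2 difference of -0.91 (95% interval -1.76 to -0.07, adjusted p = 0.304 from limma). Of the fits that left out 1 array, the one without si*EPB41L4A* replicate 4 moved this difference most, to -0.57.

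*SNTB2*, beta-2-syntrophin, is a partner of utrophin. Its log2 values were 4.93, 4.90, 5.32 and 4.94 in si*EPB41L4A* arrays and 5.34, 4.11, 4.84 and 5.50 in si*NS* arrays. None of them exceeded the 95th percentile of the negative controls, so that no change of *SNTB2* could be measured well here. The log2 difference was 0.08 (95% interval -0.57 to 0.72, adjusted p = 0.951 from limma).

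Dystrophin and utrophin were well above the negative controls in both groups. *DMD*, the actin-binding rod protein lost in Duchenne muscular dystrophy, had log2 values of 11.31, 12.31, 12.04 and 12.01 with si*EPB41L4A* and 11.70, 11.90, 11.85 and 11.43 with si*NS*. Its log2 difference was 0.20 (95% interval -0.34 to 0.74, adjusted p = 0.813 from limma). *UTRN*, its widely expressed relative, had 11.14, 11.24, 10.89 and 11.44 with si*EPB41L4A* and 11.61, 10.81, 11.04 and 10.58 with si*NS*. The log2 difference of *UTRN* was 0.17 (95% interval -0.38 to 0.72, adjusted p = 0.850 from limma). The groups overlapped in both genes, with 3 of 4 si*EPB41L4A* arrays of *DMD* above all si*NS* arrays and the fourth below them, and a fall or rise of more than 1 on the log2 scale lies outside each interval.

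The dystrobrevins lay on opposite sides of 0, and neither passed the test. *DTNA*, alpha-dystrobrevin, the form of muscle and astrocytes, had log2 values of 4.21, 5.43, 4.69 and 5.19 in si*EPB41L4A* arrays, against 5.0, 6.12, 7.52 and 6.70 in si*NS* arrays. The groups overlapped through si*NS* replicate 1, which lay among the si*EPB41L4A* arrays, and *DTNA* exceeded the 95th percentile of the negative controls on 2 of 8 arrays. The means were 4.88 ± 0.54 in si*EPB41L4A* cells and 6.34 ± 1.06 in si*NS* cells (SD, n = 4 each), a log2 difference of -1.46 (95% interval -2.45 to -0.47, adjusted p = 0.135 from limma). The gene was called without si*NS* replicate 1 (-1.90, adjusted p = 0.0337 from limma, where leaving out arrays gave adjusted p of 0.0337 to 0.451). A further probe set of *DTNA*, with means of 3.79 ± 0.52 in si*EPB41L4A* cells and 3.36 ± 0.45 in si*NS* cells (SD, n = 4 each), was at the level of the negative controls in both groups.

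*DTNB*, beta-dystrobrevin, is the form of kidney, liver and other non-muscle tissues. It had log2 values of 8.37, 8.14, 7.97 and 8.48 in si*EPB41L4A* arrays, against 7.77, 7.54, 7.23 and 7.83 in si*NS* arrays. Each si*EPB41L4A* array lay above each si*NS* array, by a margin smaller than the spread within a group. The means were 8.24 ± 0.23 in si*EPB41L4A* cells and 7.59 ± 0.27 in si*NS* cells (SD, n = 4 each), a log2 difference of 0.65 (95% interval 0.16 to 1.13, adjusted p = 0.182 from limma).

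*SGCE*, epsilon-sarcoglycan, is the sarcoglycan found widely outside muscle. Its log2 values were 8.25, 8.21, 8.48 and 8.14 in si*EPB41L4A* arrays, against 7.47, 6.54, 7.89 and 7.55 in si*NS* arrays. The groups did not overlap here either, and the spread was wider with si*NS*, where replicate 2 was lowest. The means were 8.27 ± 0.15 in si*EPB41L4A* cells and 7.36 ± 0.58 in si*NS* cells (SD, n = 4 each), a log2 difference of 0.91 (95% interval 0.30 to 1.51, adjusted p = 0.126 from limma). So 2 of the 7 members did not overlap and were higher, where 6.53% of all genes were higher without overlap, and 0 of the 7 were lower without overlap, where 7.85% of all genes were. Neither *DTNB* nor *SGCE* was called under any of the alternatives tried, with adjusted p of 0.099 to 0.445 for *DTNB* and 0.0683 to 0.392 for *SGCE* from limma and the unmoderated test.

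**Figure D2:**
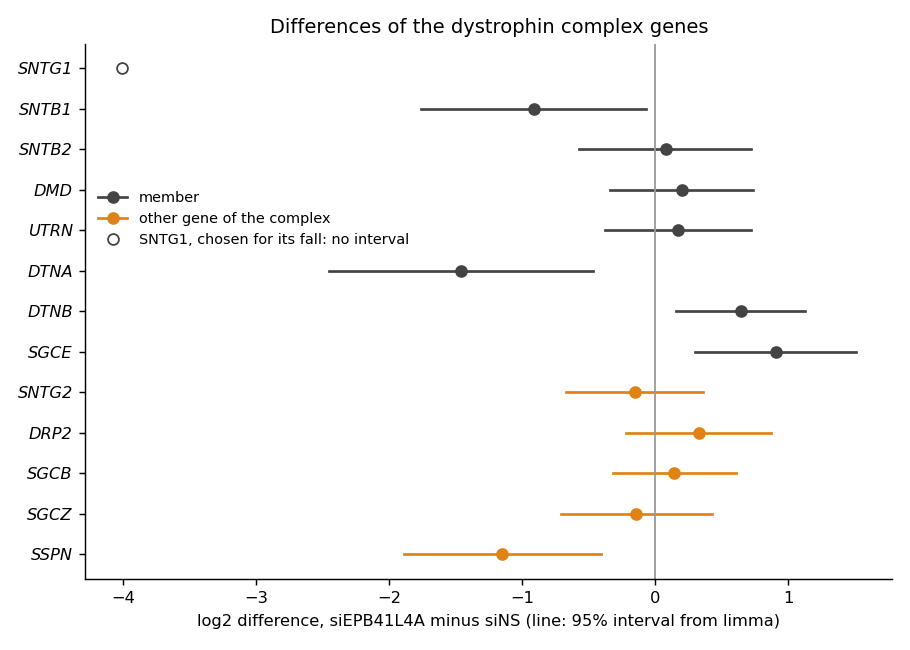
Log2 difference, siEPB41L4A minus siNS (x axis), of the 8 measured members (dark) and 5 other tested genes of the complex (orange); points are differences, lines the 95% intervals from limma (4 arrays per group), and the open point is SNTG1, shown without an interval. SNTG1 lies at -4.01, DTNA and SSPN at -1.46 and -1.15, and DMD, UTRN, SNTB2 and SGCB near 0.

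Paralogs can take each other's place in the complex, so their differences within an array were compared between the groups. For *DTNA* minus *DTNB*, this value was -3.36 ± 0.60 in si*EPB41L4A* arrays and -1.26 ± 1.25 in si*NS* arrays (SD, n = 4 each). The change of -2.10 did not pass the test (exact two-sided permutation p = 0.0571, adjusted over the 3 pairs 0.171), and si*NS* replicate 1 overlapped with the si*EPB41L4A* arrays. *SNTB1* minus *SNTB2* changed by -0.99 (exact two-sided permutation p = 0.143, adjusted 0.214), a pair in which *SNTB2* is near background. *DMD* minus *UTRN* was 0.74 ± 0.46 in si*EPB41L4A* arrays and 0.71 ± 0.43 in si*NS* arrays (SD, n = 4 each, exact two-sided permutation p = 0.914, adjusted 0.914). The smallest p that 4 arrays against 4 allow is 0.0286, which for any of these pairs would be 0.0857 after adjustment beside the other 2, so that no single pair could have passed 0.05 there.

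**Figure D3:**
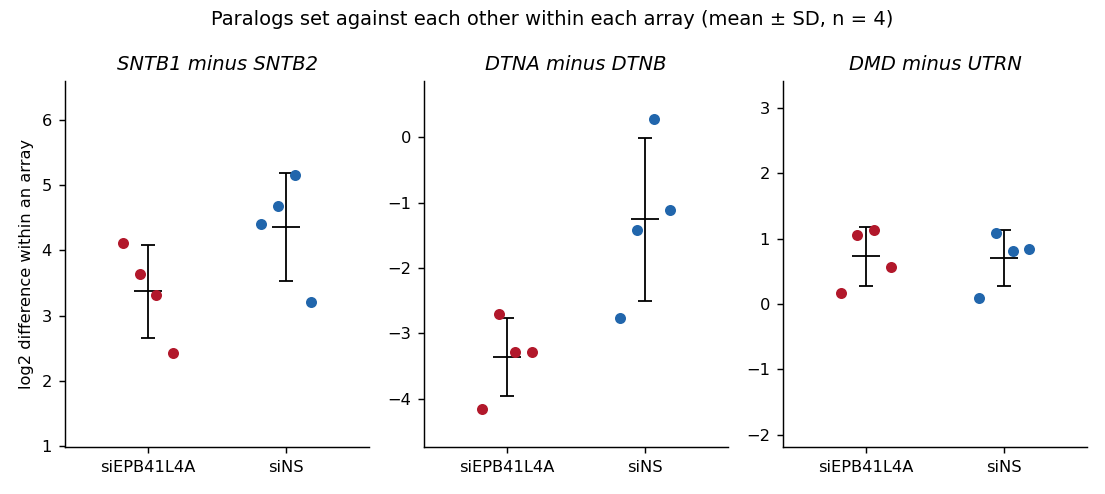
Log2 value of 1 paralog minus that of the other within each array (y axis) for 3 pairs, with siEPB41L4A and siNS; points are arrays and bars the mean ± SD (n = 4). DTNA minus DTNB is lower with siEPB41L4A, by -2.10 with an overlap at siNS replicate 1, and DMD minus UTRN is alike in the groups.

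Most of the rest of the complex lay near the negative controls. Of 9 further genes listed, 6 had a single-symbol probe set, and 5 of these 6 exceeded the 95th percentile of the negative controls on no array (*SNTG2*, *DRP2*, *SGCA*, *SGCZ* and *SSPN*). By limma, 0 of the 5 tested were called, where 5.51% of all genes were, and 1 of the 5 reached an unadjusted p under 0.05, where 22.2% of all genes did. The median log2 difference was -0.14, and the unmoderated test called 0 as well. *SGCB*, beta-sarcoglycan, a core subunit of the sarcoglycan group, was the well-measured one, with log2 values of 11.41, 11.20, 11.83 and 11.38 in si*EPB41L4A* arrays and 11.24, 11.48, 11.11 and 11.40 in si*NS* arrays. Its log2 difference was 0.14 (95% interval -0.32 to 0.61, adjusted p = 0.849 from limma).

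*SSPN*, sarcospan, the small tetraspan protein that binds the sarcoglycans, had log2 values of 3.51, 3.83, 5.07 and 3.88 in si*EPB41L4A* arrays, against 5.49, 5.46, 5.39 and 4.54 in si*NS* arrays. The groups overlapped at si*EPB41L4A* replicate 3 and si*NS* replicate 4. The log2 difference was -1.15 (adjusted p = 0.112 from limma), and the si*EPB41L4A* mean was not above that of the negative controls. With each array's mean of the controls in place of any lower value, the si*EPB41L4A* mean was at least 0.84 below that of si*NS* on the log2 scale. *SSPN* was called without si*EPB41L4A* replicate 3 (adjusted p = 0.0288 from limma) and with a trend on gene length removed (adjusted p = 0.0317 from limma). Over all alternatives its adjusted p was 0.0288 to 0.449.

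The genes listed for the glycosylation of dystroglycan, some of which serve other sugar chains as well, were better measured. All 14 with a probe set of 18 listed were tested, 11 of them exceeded the 95th percentile of the negative controls on all arrays, and 0 of the 14 were called by limma or the unmoderated test, where limma called 5.51% of all genes. At an unadjusted p under 0.05 there were 8 of the 14, 4 higher and 4 lower, where 22.2% of all genes reached it, and the median log2 difference was 0.08. The nearest to the threshold was *POMGNT1*, which adds N-acetylglucosamine to O-mannose, with 11.14, 11.33, 10.51 and 10.50 in si*EPB41L4A* arrays against 12.01, 12.00, 12.18 and 11.42 in si*NS* arrays. These arrays did not overlap (log2 difference -1.03, adjusted p = 0.0645 from limma, 0.0325 to 0.329 over the alternatives).

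*B4GAT1*, which primes the matrix-binding chain, differed by 0.98 on the log2 scale (adjusted p = 0.105 from limma). It was called by limma with the replicate number as a block (adjusted p = 0.0494) and with the gene-length trend removed (adjusted p = 0.0335). *LARGE2*, which extends that chain, had 8.44, 9.12, 8.86 and 8.33 with si*EPB41L4A* and 7.94, 7.73, 8.32 and 7.87 with si*NS*, just free of overlap (log2 difference 0.72, adjusted p = 0.167 from limma). With the gene-length trend removed, limma called *LARGE2* (adjusted p = 0.0488). *POMGNT2* differed by 1.25 and *POMT2* by -0.96 on the log2 scale (adjusted p = 0.211 and 0.176 from limma). With the block, limma also called *POMT2* and *POMGNT1*, both lower (adjusted p = 0.0352 and 0.0342).

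Of 11 dystroglycan ligands listed, 9 had a probe set, 5 were tested and 0 were called by limma or the unmoderated test, where limma called 5.51% of all genes. Their median log2 difference was -0.01, and 1 of the 5 reached an unadjusted p under 0.05, against 22.2% of all genes. That gene was *AGRN*, agrin, a basement membrane proteoglycan, with 10.62, 9.90, 10.33 and 9.15 in si*EPB41L4A* arrays against 11.94, 11.47, 11.86 and 10.46 in si*NS* arrays. The groups overlapped through si*NS* replicate 4 (log2 difference -1.43, adjusted p = 0.0712 from limma). Without that array the adjusted p from limma was 0.0226, and over all alternatives it was 0.00389 to 0.318. *HSPG2*, perlecan, exceeded the 95th percentile of the negative controls on 2 of 8 arrays, and 6 of the 9 ligands, *LAMA2* among them, did so on none.

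The calls near the complex fell among the intracellular partners, proteins reported to bind dystrophin, the dystrobrevins or the syntrophins. Of 25 listed, 24 had a probe set and 22 were tested, of which limma called 5, where it called 5.51% of all genes. Higher were 2 of the 5 and lower 3, where 2.55% of all genes were called higher and 2.96% lower. Before adjustment, 9 of the 22 had a p under 0.05 from limma, where 22.2% of all genes did, and the unmoderated test called 0. The median log2 difference of the 22 was 0.02. The groups did not overlap in 7 of them, the 5 called genes included, and in 14.4% of all genes. The list was chosen with earlier results of these data known, so these counts are a description and no test of the list.

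*CTNNAL1*, alpha-catulin, a relative of alpha-catenin that binds dystrobrevin, rose. Its log2 values were 10.71, 10.46, 9.81 and 10.65 in si*EPB41L4A* arrays, against 9.15, 9.22, 8.96 and 9.27 in si*NS* arrays (log2 difference 1.26, 95% interval 0.74 to 1.78, adjusted p = 0.0162 from limma). Each si*EPB41L4A* array was above each si*NS* array, and the call was kept in 6 of 8 fits that left out an array. It was lost without si*EPB41L4A* replicate 2 or si*NS* replicate 3 (adjusted p = 0.0512 to 0.0572 from limma).

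*ANK2*, ankyrin-B, a membrane skeleton adaptor that binds dystrophin, also rose. It had 7.02, 7.71, 7.65 and 8.44 with si*EPB41L4A* and 5.74, 6.61, 6.05 and 6.71 with si*NS* (log2 difference 1.43, 95% interval 0.73 to 2.12, adjusted p = 0.0362 from limma). The call was kept in 2 of 8 fits that left out an array and was lost without si*EPB41L4A* replicate 2, 3 or 4 or si*NS* replicate 1, 2 or 3 (adjusted p = 0.06 to 0.102 from limma).

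*ABCA1*, the cholesterol exporter that syntrophins bind through their PDZ domain, fell. It had 14.10, 13.50, 12.32 and 12.51 with si*EPB41L4A* and 15.90, 15.25, 14.37 and 14.72 with si*NS* (log2 difference -1.95, 95% interval -2.86 to -1.04, adjusted p = 0.030 from limma). All 4 si*EPB41L4A* arrays were lower than the lowest si*NS* array. The call was kept in 3 of 8 fits that left out an array and was lost without si*EPB41L4A* replicate 2, 3 or 4 or si*NS* replicate 1 or 2 (adjusted p = 0.0616 to 0.0875 from limma).

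The other 2 that fell are cytoskeletal linkers. *SYNM*, the intermediate filament protein synemin, had 5.67, 4.65, 5.30 and 5.10 with si*EPB41L4A* and 6.91, 6.28, 6.00 and 7.02 with si*NS* (log2 difference -1.37, adjusted p = 0.030 from limma), and exceeded the 95th percentile of the negative controls on 2 of 8 arrays. *PLEC*, plectin, which ties intermediate filaments to the membrane, had 10.44, 9.96, 10.22 and 10.20 with si*EPB41L4A* and 11.87, 11.42, 10.87 and 11.26 with si*NS* (log2 difference -1.15, adjusted p = 0.0283 from limma). For both genes the call was kept in 2 of 8 fits that left out an array. It was lost without si*EPB41L4A* replicate 2, 3 or 4 or si*NS* replicate 1, 2 or 4, with adjusted p of 0.0553 to 0.0998 for *SYNM* and 0.0501 to 0.0968 for *PLEC* from limma.

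**Figure D4:**
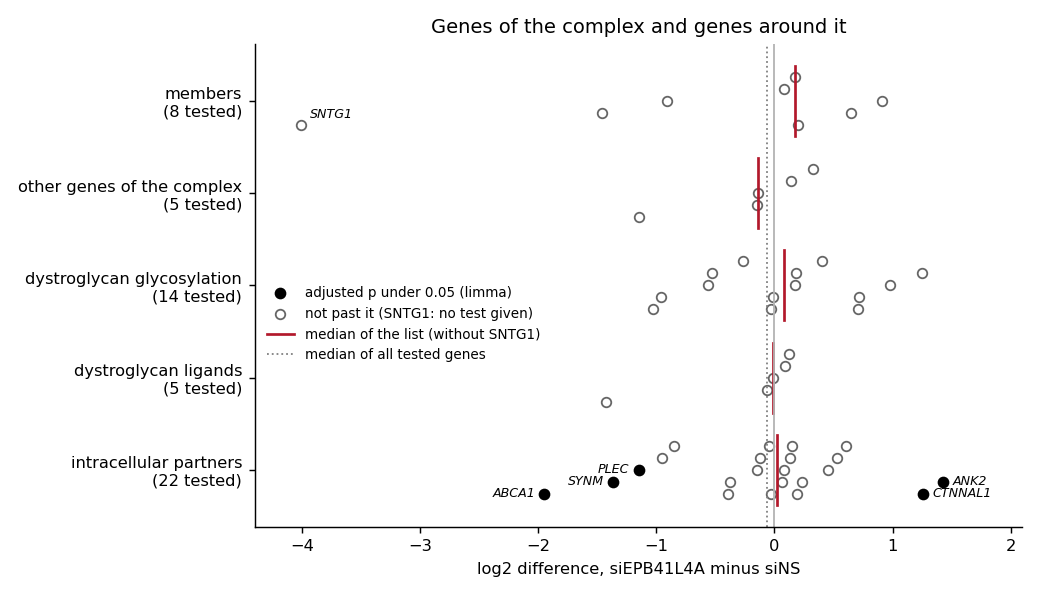
Log2 difference, siEPB41L4A minus siNS (x axis), of the tested genes of 5 lists (rows); each point is a gene, filled where limma called it (adjusted p under 0.05) except SNTG1, which is drawn open because no test of it is given; red lines are list medians (that of the members without SNTG1) and the dotted line the median of all genes, -0.06. The 5 filled points are all intracellular partners, and each list median lies between -0.14 and 0.17.

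Of all genes tested, those whose pattern over the 8 arrays came nearest to that of *SNTG1* were sought by the root mean square of the difference between centred log2 values. These were *ACTBL2*, an actin-like gene, at a distance of 0.274, *FILIP1L*, at 0.313, *CDH6*, a classical cadherin, at 0.361, *STRA6*, the receptor for retinol-binding protein, at 0.393 and *S1PR1*, a sphingosine-1-phosphate receptor, at 0.454. Each was lower in si*EPB41L4A* cells, with log2 differences of -4.20, -4.09, -3.51, -3.31 and -3.85 in that order. Since the measure uses the same arrays and *SNTG1* is far lower with si*EPB41L4A*, any gene near it is low there too.

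*ACTBL2* followed *SNTG1* most closely, with log2 values of 9.75, 9.77, 10.64 and 9.19 in si*EPB41L4A* arrays, against 13.35, 13.62, 14.57 and 14.61 in si*NS* arrays. As in *SNTG1*, replicate 4 was the lowest with si*EPB41L4A*, and replicates 3 and 4 were the highest with si*NS*. *ACTBL2* was selected for its nearness over these same arrays, so such a match within the groups follows from the selection. The members of the complex were much farther away. *DTNA* was nearest at 1.47, with 498 of 22464 genes closer, then *SNTB1* at 1.64 with 1122 closer, and the other 5 lay at 2.11 to 2.49. The measure keeps the size of a change, so any gene without a large fall is far from *SNTG1*. No conclusion on the members is drawn from these distances.

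**Figure D5:**
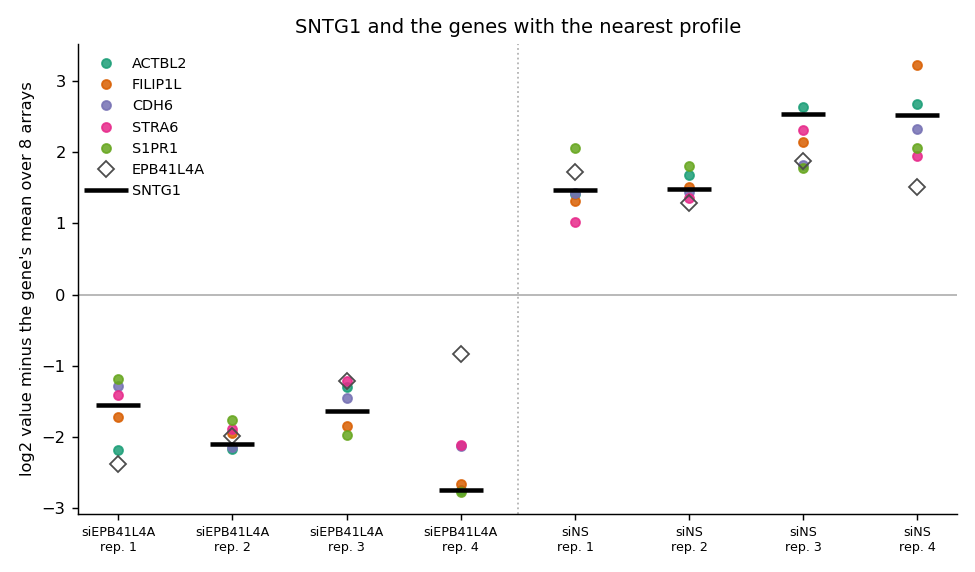
Log2 value minus the gene's own mean over 8 arrays (y axis) on each array (x axis), for SNTG1 (black bars), the 5 genes with the nearest profile (coloured points) and EPB41L4A (open diamonds). SNTG1 is lowest on siEPB41L4A replicate 4, where EPB41L4A was highest of its group, at 7.09.

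The genes next to the members on their chromosomes were looked up in the RefSeq table after the values were seen. Only protein-coding genes with a single-symbol probe set were considered, so other genes may lie between. Of 16 such neighbours of the 8 members, 15 were tested. Limma called 2 of the 15, where it called 5.51% of all genes, and both lie beside *DTNB*. None of the tested neighbours of *SNTB1*, *SNTB2*, *DMD*, *UTRN* and *DTNA* was called. On either side of *SNTG1* lie *PPDPFL* and *PXDNL*, both at the level of the negative controls, with means of 4.12 and 4.01 in si*EPB41L4A* cells and 4.05 and 4.25 in si*NS* cells, and neither was called (adjusted p = 0.95 and 0.745 from limma). On either side of *DTNB*, *DNMT3A*, a de novo DNA methyltransferase, fell by 1.63 (adjusted p = 0.00503 from limma), and *ASXL2*, a Polycomb-associated chromatin regulator, rose by 1.0 (adjusted p = 0.0391 from limma) on the log2 scale. The call of *DNMT3A* was kept in 8 of 8 fits that left out an array and that of *ASXL2* in 1 of 8, the one without si*EPB41L4A* replicate 1. The unmoderated test called neither (adjusted p = 0.0659 for *DNMT3A* and 0.112 for *ASXL2* over all probe sets), and without both arrays numbered 3 the adjusted p of *DNMT3A* from limma was 0.05.

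Next to *SGCE*, whose arrays with si*EPB41L4A* all lay above those with si*NS*, *CASD1* had means of 8.99 in si*EPB41L4A* cells and 10.14 in si*NS* cells (log2 difference -1.15, adjusted p = 0.0927 from limma). *PEG10*, a retrotransposon-derived gene that is imprinted like *SGCE*, had means of 9.31 in si*EPB41L4A* cells and 9.72 in si*NS* cells (log2 difference -0.41, adjusted p = 0.777 from limma). Thus no neighbour of *SNTG1* or *SGCE* was called.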

How the data were processed

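Total RNA of BCPAP cells was hybridised to Clariom D Human arrays (4 si*EPB41L4A*, 4 si*NS*). Using Affymetrix Expression Console, the authors turned scanner signals into RMA values, deposited on the log2 scale for each array. Neither its version nor a genome build is stated in what was read here, and no coordinates are printed. Precision is limited by the number of arrays.

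The deposited log2 values were used without further normalization. Of 135750 probe sets besides 2995 control rows, 66831 exceeded the median of their array on 4 or more of 8 arrays and were tested with limma 3.58.1 in R 4.3.3 (lmFit, eBayes, no block). P-values were adjusted over all of them by the Benjamini-Hochberg method, with a threshold of 0.05. Platform annotation gave 1 gene symbol to 36176 probe sets, of which 25516 were matched to the RefSeq table of GRCh38.p14, and several to 1119, from which no gene was named. A gene is represented by its single-symbol probe set with the highest mean over 8 arrays. Values of negative controls come from 612 probe sets. Paralog pairs were compared by exact permutation in SciPy 1.17.1. The limma step was tested on simulated data with known changes.

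The members and the 10 gene lists were chosen with earlier results of these data known. Named were every measured member, the other listed genes of the complex, the called genes of each list (at most 4), *EPB41L4A* and the 5 genes nearest to *SNTG1*. *PLEC*, *AGRN*, *POMGNT1*, *POMGNT2*, *POMT2*, *B4GAT1*, *LARGE2*, *HSPG2*, *LAMA2*, the uncalled markers and the neighbouring genes were named after their values were seen.

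Alternatives were the replicate number as a block, a trended prior variance and array weights. Another was a test of each probe set with equal variances and no moderation (the array methods of the study state a moderated one). Further ones were median centring, a further quantile normalization, removal of a gene-length trend, and filtering at the 75th percentile or not at all. The last were other probe sets of a member and leaving out arrays.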

Additional observations from a re-analysis of the deposited data

Results flagged for a closer look

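A sample lay far from the other 3 of its group in 2 of 38 groups of values examined, by a gap above Dixon's critical share of the group's range, and chance flags about 1 in 20 such groups. *SNTB2* was at 5.32 on the log2 scale in si*EPB41L4A* replicate 3, where the nearest of the other arrays with si*EPB41L4A* was at 4.94 (gap 0.905 of the range). All *SNTB2* values lay under the 95th percentile of the negative controls. *SSPN* was at 4.54 in si*NS* replicate 4, where the nearest of the other si*NS* arrays was at 5.39 (gap 0.895 of the range).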

How the results depend on the processing

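The calls of all 1747 probe sets became 3176 with the replicate number as a block, 312 by the test without moderation and 139 by it at a fold over 2 with p under 1e-04, and 394 to 1628 when arrays were left out. Same-numbered arrays deviated together at r = 0.228, 0.0746, 0.201 and 0.385, and no source says that numbers mark pairs, so no pairing was assumed.

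The members past the threshold were 1 (*SNTG1*, which chose the family and so counts as no test), 2 with the block (also *DTNA*, adjusted p = 0.0425 from limma, 0.0337 to 0.719 over its alternatives, where the block called 9.95% of all genes), and 1 to 2 when arrays were left out. Of the other genes of the complex 0 were called, 1 (*SSPN*) with the gene-length trend removed, and 0 to 1 when arrays were left out. Of the glycosylation genes 0 were called, 1 with the 75th percentile filter, 3 with the block, 3 with the length trend removed, and 0 to 1 when arrays were left out. Of the ligands 0 were called, and 1 (*AGRN*) with the block, with array weights and with the length trend removed, and 0 to 1 when arrays were left out. The 5 partners called became 0 by the unmoderated test at either threshold and 0 to 6 when arrays were left out. *ANK2* was not called with no filter (adjusted p = 0.0539 from limma). The cause of these changes was not tested.

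The sign turned in *SNTB2* (-0.07 with the length trend removed, -0.20 to 0.29 when arrays were left out). It also turned in *UTRN* (-0.06 to 0.38) and *DMD* minus *UTRN* (-0.18 to 0.22) when arrays were left out. The further probe sets of *DTNA* (0.43) and *SSPN* (0.22), both at background, had the opposite sign to the main ones. The differences of *SNTB1* (-1.14 to -0.57), *DTNB* (0.53 to 0.74), *SGCE* (0.63 to 1.08), *SNTB1* minus *SNTB2* (-1.37 to -0.68) and *DTNA* minus *DTNB* (-2.61 to -1.59) kept their sign when arrays were left out. Values near the negative controls (*SNTB2*, *DTNA*, *SSPN*) limit what can be read from them.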
